A study of Homo sapiens with 6 samples.

Results

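The genes described here are those that sense double-stranded RNA inside the cell, carry the interferon signal, or are switched on by interferon. They were followed in LX-2 cells, a human line of activated hepatic stellate cells, 48 h after transfection of a small interfering RNA (siRNA). The members were chosen by gene symbol, with earlier results of these data known. Of 49 symbols given, DDX58 and RIGI name 1 gene, listed as DDX58. The rows taken were therefore 48 of the 60669 of the deposited table. Of these, 46 were tested, as part of the 15637 genes whose normalized counts averaged 10 or more over the 6 libraries. The interferon gene IFNB1 and the transcription factor gene IRF9 were listed at 0 in all 6 libraries and were not tested.

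The study compared LX-2 cells given an siRNA against ADAMTS12, a secreted metalloprotease (siADAMTS12, n = 3 libraries), with LX-2 cells given a commercial negative control siRNA (siCTL, n = 3 libraries). Both groups carry the label WT, were transfected with the same lipid reagent, were harvested at 48 h, and come from 1 cell line. Cells that received no siRNA are not among the groups analysed here, so every level below is a level in transfected cells. The siADAMTS12 arm uses 1 siRNA sequence, and an effect of the loss of ADAMTS12 cannot be told apart from an effect of that sequence. The labels do not say whether the replicates of a group were grown as separate cultures; the spread behind each p-value is that of these libraries alone and may be technical.

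Double-stranded RNA in the cytoplasm is bound by the helicases RIG-I (gene DDX58) and MDA5 (gene IFIH1), and in endosomes by TLR3. The helicases signal through MAVS on mitochondria to IRF3 and IRF7, which switch on the gene of interferon beta. Secreted interferon binds the receptor IFNAR1 and IFNAR2, and the complex of STAT proteins with IRF9 then acts on promoters that hold an interferon-stimulated response element (ISRE). Many sensors are themselves products of such genes. Long double-stranded RNA is a strong trigger of this system, short siRNAs a weaker one whose strength varies with sequence and delivery, which is why the control arm and the single libraries are given throughout.

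The siRNA against ADAMTS12 is shown because its guide strand could also pair with members' transcripts. The labels give the sense strand, the guide is its reverse complement, and capitals mark guide positions 2 to 8, the seed.
siADAMTS12 sense strand: gccaaaguuuggagggaaa
siADAMTS12 guide strand: uUUCCCUCcaaacuuuggc

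A 7-base match to the seed, GAGGGAA, occurred in the 3′ UTR of 5 of 46 tested members (10.9%), against 15.7% of the 12731 tested genes whose 3′ UTR could be searched in GENCODE 29. Those 5 were IRF1, MAVS, EIF2AK2, ISG20 and RSAD2. The site of IRF1, the member with such a match that fell, lies on GRCh38 at chr5:132483200-132483221 on the minus strand and is printed with the match in capitals.
IRF1 3′ UTR site: ggcccaggGAGGGAAgtgtgag
The same match was found in 30.9% of all genes that fell and 11.0% of all genes that rose. Whether the seed had a part in any member's change was not tested.

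Promoter windows are shown because an ISRE is what these genes are known for. RefSeq promoters (GRCh38.p14, 250 bases before to 50 after the start) were available for 37 of the 48 members. The ISRE core was searched as GAAA, any 2 bases and GAAA on both strands. It may therefore also read TTTC, any 2 bases and TTTC. Capitals mark only the first core in each promoter. The promoters of IFI6 and HERC5 held 3 cores each, and IFITM3, IFIT1, ISG15 and BST2 had 2 each. In the windows of ISG15, BST2 and HERC5 a further core overlaps the capitals and is not marked.
IFI6 (chr1:27672331-27672356, minus strand): agagagggGAAAATGAAActctgcag
IFITM3 (chr11:320895-320920, minus strand): aatgccagGAAAAGGAAActgttgag
IFIT1 (chr10:89392499-89392524, plus strand): agctttagTTTCACTTTCccctttcg
ISG15 (chr1:1013376-1013401, plus strand): tgcctcggGAAAGGGAAAccgaaact
BST2 (chr19:17405743-17405768, minus strand): ctttctggGAAACTGAAActgaaaac
HERC5 (chr4:88456986-88457011, plus strand): cattacagTTTCCTTTTCcttttcga

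The ISRE core was present in 22 of 37 member promoters (59.5%), against 2.94% of the promoters of 11254 tested genes and 3.65% of 27305 promoters. HERC5 was the only one of the 5 members that fell with a promoter entry holding this core; IFNAR1 and IRF1 held none, and IFNAR2 and IFIT2 had no entry. The shorter core that STAT dimers bind (GAS, TTCNNNGAA, which reads the same on both strands) was present in 10 of 37 member promoters (27.0%), against 6.29% of tested genes' promoters. IRF1 held 1 such core, in capitals here.
IRF1 (chr5:132490881-132490905, minus strand): agcctgatTTCCCCGAAatgacggc
A match to these letters is a description of the window, not of binding.

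The labels were checked first on the target. ADAMTS12 had normalized counts of 4083, 3449 and 3687 in siADAMTS12 libraries, against 13709, 12235 and 13423 in siCTL libraries (log2 fold change -1.81, SE 0.07, limma adjusted p = 4.81e-08). The groups did not overlap, and an exact 2-sided permutation test gave p = 0.1, the smallest that 3 against 3 allows. Totals of the deposited values were 30.68 to 31.42 M (M, 1e6) in siADAMTS12 libraries and 33.58 to 34.07 M in siCTL libraries. Of 15 stellate cell markers, 14 had a mean of at least 10, DES being the exception, and they summed to 346466 to 370963 in siADAMTS12 and 439788 to 480169 in siCTL. Markers of immune cells were low: 10 macrophage markers summed to 120 to 151 in siADAMTS12 and 129 to 153 in siCTL, with C1QA, C1QB and AIF1 at 0, and 6 lymphocyte markers summed to 3 to 5 in siADAMTS12 and 1 to 6 in siCTL. Hepatocyte markers (10 genes, 4 of them at 0) summed to 30 to 36 in siADAMTS12 and 26 to 28 in siCTL, and endothelial markers (8 genes, LYVE1, STAB2 and CLEC4G at 0) to 188 to 229 in siADAMTS12 and 289 to 314 in siCTL. The 5 cholangiocyte markers summed to 1733 to 2071 in siADAMTS12 and 1874 to 2232 in siCTL. Of these, CFTR, EPCAM and KRT19 had a mean below 10, so nearly all of the sum came from KRT7 and SOX9. The part of the stellate and endothelial sums, which were lower in siADAMTS12, in the results below was not tested.

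Interferon-stimulated transcripts were present in every library of both groups. Summed over members, the normalized counts were 64411, 78675 and 64282 in siADAMTS12 libraries, against 69972, 77033 and 68891 in siCTL libraries. The sum includes abundant sensors, effectors, receptors and transcription factors such as MAVS, ADAR, IFNAR1 and STAT2, so it does not measure the interferon-stimulated genes alone. The groups overlapped, and replicate 2 was the highest library of each. As a share of the library total this was 0.209%, 0.250% and 0.210% in siADAMTS12, against 0.208%, 0.229% and 0.202% in siCTL.

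Levels of different genes were compared as normalized counts per kb of exon, with exon lengths from GENCODE 29. IFITM3, a membrane protein that hinders virus entry, was the highest, at 3684 ± 646 per kb in siADAMTS12 and 3885 ± 591 in siCTL (SD, n = 3 each). BST2 (tetherin), which holds budding virus at the cell surface, followed at 3292 ± 371 per kb in siADAMTS12 and 2897 ± 457 in siCTL. In siADAMTS12 libraries these 2 differed by less than their spread. IFI6, a small endoplasmic reticulum protein, had 1209 ± 308 per kb in siADAMTS12 and 1303 ± 515 in siCTL. ISG15, the ubiquitin-like modifier, had 1128 ± 76.3 per kb in siADAMTS12 and 1032 ± 253 in siCTL, and the 2 genes did not differ beyond their spread. ADAR, which edits double-stranded RNA, came next at 947 ± 48.8 per kb in siADAMTS12 and 910 ± 28.3 in siCTL, within the spread of ISG15 in siCTL libraries. At the low end, RSAD2 (viperin) had 2.28 ± 1.62 per kb in siADAMTS12 and 3.72 ± 0.414 in siCTL. IFI27 stood beside it at 3.78 ± 0.975 per kb in siADAMTS12 and 3.86 ± 1.05 in siCTL.

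**Figure D1:**
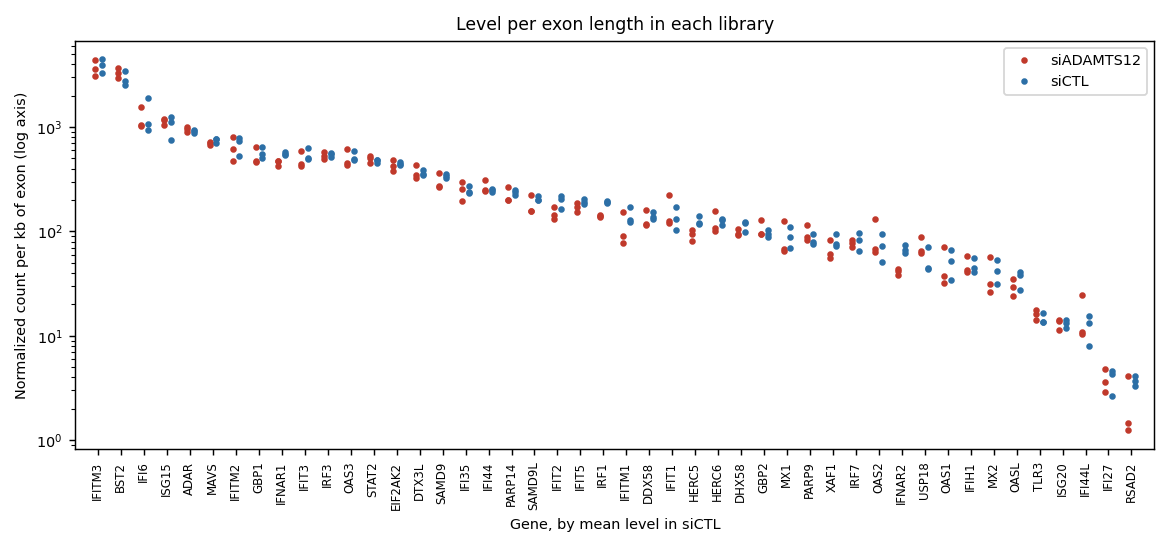
Normalized count per kb of exon (log axis) for the 46 members above 0, ordered by their siCTL mean; each point is 1 library, with siADAMTS12 left of siCTL at each gene. IFITM3 and BST2 lie highest, IFI27 and RSAD2 lowest, and for most genes the points of the 2 groups overlap.

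By siRNA, 5 of the 46 tested members fell and 0 rose; with columns brought to the same total, which shifts the median of all genes by 0.13 on the log2 scale, 3 fell and 2 (ADAR and BST2) rose, beside 1546 falls and 3868 rises over all genes. In bulk RNA a change per cell and a change in the share of cells cannot be told apart. Over all tested genes 27.0% passed the threshold (an adjusted p under 0.05, limma with Benjamini-Hochberg adjustment over all 15637 genes), 15.5% falling and 11.5% rising, against 10.9% of the members falling and 0 rising. At an unadjusted p under 0.05, 1 member was higher in siADAMTS12 (USP18), where the share of all genes was 18.0%. The members' median log2 fold change was -0.08, between -0.84 (RSAD2) and 0.45 (USP18), beside a median of 0.00 over all tested genes, with 32 members below 0 and 14 above. All siADAMTS12 libraries lay below all siCTL libraries for 4 members (8.70%), against 21.7% of all genes, and above them for 0, against 19.2%. The median siADAMTS12 over siCTL difference within a pair of same-numbered libraries was -0.19 for replicate 1, 0.04 for replicate 2 and -0.09 for replicate 3 on the log2 scale. Without the siADAMTS12 replicate 2 library 12 members fell, the 5 and IFIT3, IFITM1, PARP14, SAMD9, SAMD9L, RSAD2 and XAF1, and the median was -0.25. Without siCTL replicate 2, USP18 and BST2 rose, 4 members fell, and the median was 0.00. Leaving out replicate 3 of both groups left 2 falls, IRF1 and IFNAR2. The counts over all genes in such fits also varied and are given below as a range, so these member counts are not set against a share of all genes.

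**Figure D2:**
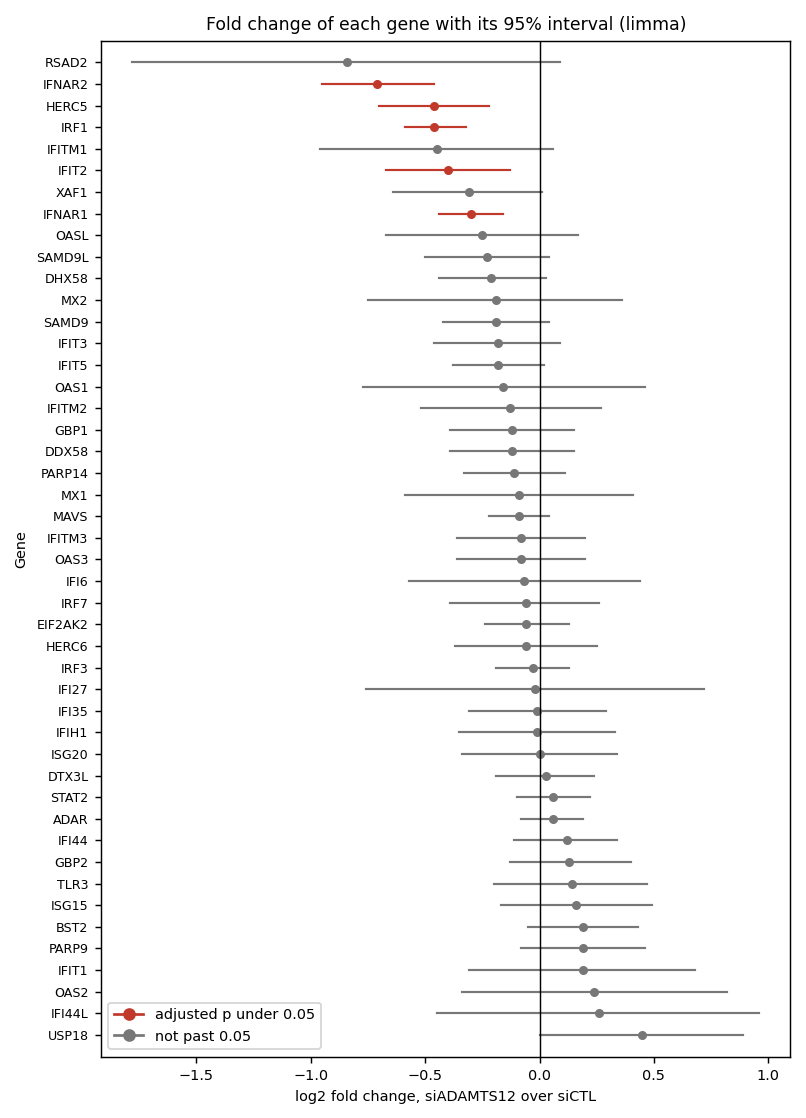
Log2 fold change of siADAMTS12 over siCTL for each tested member, with its 95% interval from limma; red marks an adjusted p under 0.05. IFNAR2, HERC5, IRF1, IFIT2 and IFNAR1 fell, and the intervals of RSAD2, IFI27, IFI44L and OAS1 are the widest.

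The first role is the sensing and handling of double-stranded RNA, and none of its 7 members passed the threshold. DDX58 (RIG-I) had 502, 691 and 512 normalized counts in siADAMTS12 libraries, against 596, 672 and 566 in siCTL libraries (log2 fold change -0.12, 95% interval -0.39 to 0.15). IFIH1 (MDA5), which binds long double-stranded RNA, had 208, 294 and 220 in siADAMTS12 and 230, 286 and 210 in siCTL, an interval of -0.35 to 0.33. For both helicases the groups overlapped and replicate 2 was highest in each group. DHX58 (LGP2), which tunes the other two helicases, had 363, 409 and 356 in siADAMTS12 and 460, 470 and 377 in siCTL, an interval of -0.44 to 0.03. TLR3 had 96, 119 and 108 in siADAMTS12 and 91, 112 and 91 in siCTL, an interval of -0.20 to 0.47.
The adaptor and effectors of this role were far more abundant. MAVS had 7990, 8346 and 8431 normalized counts in siADAMTS12 and 8963, 8366 and 9050 in siCTL, with an interval of -0.22 to 0.04. EIF2AK2 (PKR), the kinase that halts translation when it binds double-stranded RNA, had 4071, 5237 and 4587 in siADAMTS12 and 4627, 4783 and 4998 in siCTL, an interval of -0.24 to 0.13. ADAR had 9228, 9626 and 8684 in siADAMTS12 and 9076, 8860 and 8531 in siCTL, an interval of -0.08 to 0.19. The intervals of MAVS and ADAR are the narrowest of the role, and those of the low genes TLR3 and IFIH1 the widest. ADAR passed the threshold as a rise when the columns were brought to the same total and under quantile normalization, which shifts the median of all genes by 0.03 on the log2 scale.

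Of the 6 tested receptor and transcription factor genes 3 fell, where 15.5% of all genes did. IRF1, a transcription factor that interferon induces and that switches on interferon-stimulated genes in turn, had 1120, 1090 and 1060 normalized counts in siADAMTS12, against 1483, 1534 and 1473 in siCTL (log2 fold change -0.46, SE 0.06, limma adjusted p = 0.000265). IFNAR2, the receptor chain that binds interferon with high affinity, had 201, 176 and 192 in siADAMTS12, against 284, 342 and 307 in siCTL (log2 fold change -0.71, SE 0.11, limma adjusted p = 0.000711). IFNAR1, its partner chain, had 2961, 2967 and 2637 in siADAMTS12, against 3616, 3472 and 3429 in siCTL (log2 fold change -0.30, SE 0.06, limma adjusted p = 0.00562). In all 3 genes each siADAMTS12 library lay below each siCTL library. The calls of IRF1 and IFNAR2 held under all 17 alternative settings; that of IFNAR1 was lost without replicate 3 of both groups (adjusted p = 0.0706) and with columns brought to the same total (log2 fold change -0.17, adjusted p = 0.0537). On GRCh38 the 2 receptor genes lie on the plus strand of chromosome 21 with IL10RB between them, IFNAR2 at chr21:33229901-33265675 and IFNAR1 at chr21:33324477-33359862, and IRF1 lies at chr5:132481609-132490798 on the minus strand. In GENCODE 29, 44.2% of the exon bases of IFNAR2 also belong to AP000295.1, a gene on the same strand, so its reads cannot be fully assigned. Counting genes of either strand, the shared part is 83.2% for IFNAR2, 22% for IRF1 and 0% for IFNAR1. Of the other members that fell, IFIT2 shares 8.68% of its exon bases with AL353751.1 on the same strand (10.3% on either strand), and HERC5 shares 0%. Whether strand was used in counting is not known, so reads of IRF1 may be affected too. Among members without a call here, XAF1 (38.3%), IFITM3 (21.3%) and IRF3 (19.3%) also share exon bases with genes on the opposite strand.
The remaining genes of this role did not pass. IRF3, the first factor activated by MAVS, had 2195, 1978 and 1856 in siADAMTS12 and 2067, 2123 and 1971 in siCTL. STAT2, the partner of IRF9, had 3089, 3229 and 2747 in siADAMTS12 and 2973, 2942 and 2761 in siCTL, and IRF7, which is itself induced by interferon, had 202, 216 and 188 in siADAMTS12 and 217, 254 and 170 in siCTL. The groups overlapped for all 3. IRF9 was listed at 0 like IFNB1, and 48.4% of its exon bases are shared with AL136295.5 on the same strand. The other exon bases of IRF9 are not shared, and whether the overlap had a part in the listing at 0 was not tested. That listing need not mean that IRF9 RNA was lacking.

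**Figure D3:**
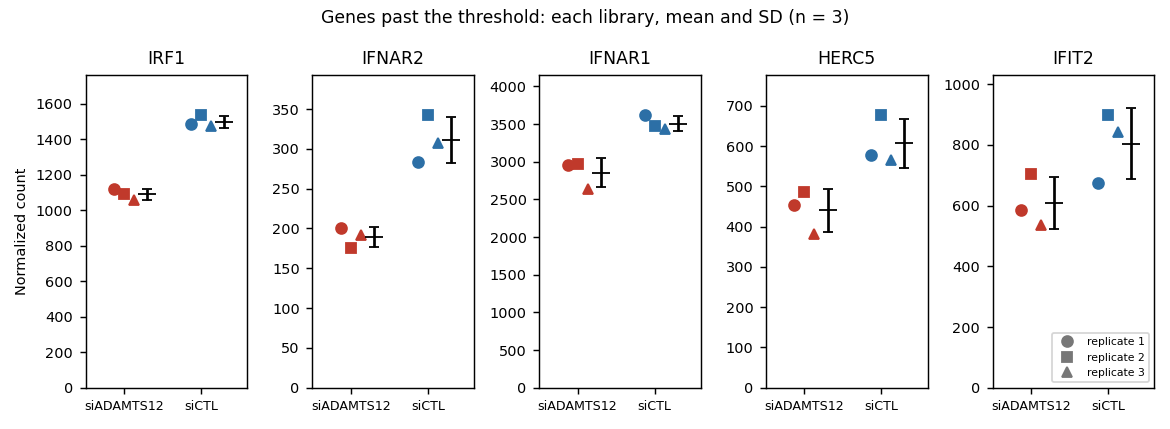
Normalized counts of the 5 members past the threshold in each library (symbols mark replicate numbers), siADAMTS12 left of siCTL, with mean and SD (n = 3) in black. The groups are apart for IRF1, IFNAR2, IFNAR1 and HERC5, and overlap for IFIT2.

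The IFIT proteins bind viral RNA that lacks the marks of host messengers. IFIT2 had 584, 704 and 537 normalized counts in siADAMTS12, against 673, 897 and 843 in siCTL (log2 fold change -0.40, SE 0.12, limma adjusted p = 0.0325). Its groups overlapped, and the call was lost under 8 of 17 alternative settings, with adjusted p between 0.00715 and 0.303. Among those were leaving out siADAMTS12 replicate 1 (0.0747), siADAMTS12 replicate 3 (0.125), siCTL replicate 2 (0.124), siCTL replicate 3 (0.11) or replicate 3 of both groups (0.303). IFIT1 had 560, 1034 and 576 in siADAMTS12, against 611, 784 and 471 in siCTL, with an interval of -0.31 to 0.68. IFIT3 had 1111, 1539 and 1155 in siADAMTS12 and 1298, 1656 and 1341 in siCTL, and IFIT5 had 694, 753 and 611 in siADAMTS12 and 815, 769 and 741 in siCTL. None of these 3 passed the threshold, and IFIT1, IFIT2 and IFIT3 were highest in replicate 2 of both groups.

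In the ISG15 system, which attaches a ubiquitin-like tag to proteins, HERC5 fell and the others did not pass. HERC5, the main human ligase for ISG15, had 453, 487 and 382 normalized counts in siADAMTS12, against 578, 676 and 566 in siCTL (log2 fold change -0.46, SE 0.11, limma adjusted p = 0.00857), and the groups did not overlap. Its call was lost without replicate 1 of both groups (0.0571) and without replicate 3 of both groups (0.0648). ISG15 itself had 1115, 1090 and 980 in siADAMTS12 and 1050, 1160 and 703 in siCTL, and HERC6, a relative of HERC5, had 626, 907 and 589 in siADAMTS12 and 750, 759 and 664 in siCTL.
USP18, which removes ISG15 and dampens the receptor, had 137, 187 and 133 in siADAMTS12 and 93, 150 and 96 in siCTL (log2 fold change 0.45, SE 0.20, limma adjusted p = 0.127). Each siADAMTS12 library exceeded the siCTL library of its own number, but the groups overlapped. Without siCTL replicate 2 its adjusted p was 0.0259. USP18 has a near-identical copy in the genome, so its counts are uncertain.

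The OAS enzymes make the short oligoadenylates that activate RNase L, and none of the 4 passed the threshold. OAS3 was the most abundant, at 3540, 5131 and 3690 normalized counts in siADAMTS12 and 4103, 4882 and 3982 in siCTL. OAS1 had 159, 349 and 186 in siADAMTS12 and 257, 327 and 171 in siCTL, and OAS2 had 426, 821 and 398 in siADAMTS12 and 451, 588 and 318 in siCTL. OASL, which lacks the enzymatic activity, had 104, 124 and 84 in siADAMTS12 and 134, 143 and 96 in siCTL. In all 4 genes replicate 2 was the highest library of both groups, and the groups overlapped.

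The MX and GBP proteins are large GTPases that act on virus particles and on vacuoles around pathogens, and none of the 4 passed. MX1 had 556, 1085 and 587 in siADAMTS12 and 756, 951 and 594 in siCTL, and MX2 had 344, 735 and 408 in siADAMTS12 and 547, 699 and 404 in siCTL. GBP1, the most abundant of the role by normalized count and per kb, had 2325, 3202 and 2337 in siADAMTS12 and 2537, 3213 and 2747 in siCTL, and GBP2 had 589, 799 and 595 in siADAMTS12 and 551, 649 and 592 in siCTL. Replicate 2 was again highest in both groups for all 4.

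Of the IFITM genes, IFITM3 had 4168, 5895 and 4836 normalized counts in siADAMTS12 and 4416, 6007 and 5289 in siCTL. IFITM1 had 83, 164 and 97 in siADAMTS12 and 134, 184 and 138 in siCTL (log2 fold change -0.45, SE 0.23, limma adjusted p = 0.174), and without siADAMTS12 replicate 2 its adjusted p was 0.0117. IFITM2 had 722, 1225 and 943 in siADAMTS12 and 808, 1127 and 1195 in siCTL. None of the 3 passed, and IFITM1 and IFITM2 share exon bases with each other on 1 strand (32.5% of those of IFITM1, 22.7% of those of IFITM2).
PARP9 and its partner DTX3L, PARP14, and the antiviral proteins SAMD9 and SAMD9L make a further group of 5 without a call; their log2 fold changes lay between -0.23 and 0.19. All 5 were highest in replicate 2 of both groups. The most abundant of them by normalized count, PARP14, had 2091, 2772 and 2108 in siADAMTS12 and 2502, 2612 and 2340 in siCTL, and the highest per kb, DTX3L, had 1920, 2549 and 2043 in siADAMTS12 and 2060, 2278 and 2019 in siCTL.
The last 9 members are interferon-induced genes of varied function, none past the threshold. BST2 had 3673, 4104 and 3274 in siADAMTS12 and 3069, 3817 and 2838 in siCTL, and XAF1, which promotes cell death, had 367, 551 and 398 in siADAMTS12 and 485, 631 and 506 in siCTL. IFI6 had 875, 1353 and 909 in siADAMTS12 and 928, 1637 and 816 in siCTL, and IFI44L had 106, 253 and 110 in siADAMTS12 and 134, 159 and 81 in siCTL. In all 4 the groups overlapped and replicate 2 was the highest. RSAD2, at the floor of the filter, had 7, 20 and 6 in siADAMTS12 and 16, 20 and 18 in siCTL, an interval of -1.78 to 0.09. The other members of this group, IFI27, IFI35, IFI44 and ISG20, had log2 fold changes between -0.02 and 0.12.

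Same-numbered libraries of the 2 groups deviated together, and fitting the number as a block changed the members' count. In that fit 8 members fell and 2 rose, against 35.1% of all genes passing, 19.6% falling and 15.5% rising. IFIT3 (adjusted p = 0.0336), IFITM1 (0.0299) and XAF1 (0.0116) joined the 5 falls, and USP18 (0.0184) and BST2 (0.0178) rose, all by limma with the block. The 5 that fell without the block kept their calls.

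That shared deviation was itself large in these genes, a pattern noticed after their values were seen. Of the 46 tested members, 33 (71.7%) had their highest value in replicate 2 of both groups, against 12.6% of all tested genes. None was highest in replicate 1 of both groups, where the share of all genes was 19.7%, and MAVS alone was highest in replicate 3 of both, where the share of all genes was 9.71%. The median difference of replicate 2 from the mean of replicates 1 and 3, averaged over both groups, was 0.31 on the log2 scale for members and -0.00 for all genes, whose 5th to 95th percentiles were -0.32 to 0.37. It was above 0 for 44 of 46 members and for 49.9% of all genes. In 37 of 46 members (80.4%) this difference was larger in size than the siADAMTS12 over siCTL difference, against 30.3% of all genes.

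The largest differences were 0.91 for IFI44L, 0.86 for RSAD2, 0.83 for OAS1, 0.81 for OAS2, 0.77 for MX2 and 0.76 for IFI6, each as log2 replicate 2 over the others. That of RSAD2, a gene of low counts, came mostly from siADAMTS12 (1.49, against 0.22 in siCTL). Its unadjusted p for the replicate number was 0.15 (F test by limma in the block fit). By role the median was 0.60 in the OAS family, 0.54 in the MX and GBP genes, 0.38 in the IFITM family and 0.34 in the IFIT family. It was lowest in the sensors and effectors of double-stranded RNA (0.18) and in the receptor and transcription factors (0.03). The 5 members that fell with siADAMTS12 had a median of 0.03 (0.03 to 0.29), a description only, since a large replicate difference adds to the spread that a call without the block is tested against. For the replicate number itself, an F test by limma in the block fit over all genes, 4 members passed an adjusted p under 0.05: IFI6 (0.0182), IFITM3 (0.0218), OAS2 (0.0281) and IFIT1 (0.0441). That is 8.70% of the members, against 0.671% of all genes. At an unadjusted p under 0.05 it was 31 members (67.4%), against 16.0% of all genes. Members with an ISRE core in the promoter had a median of 0.29 (n = 22) and those without it 0.33 (n = 13). What the libraries numbered 2 share beyond their number is not stated in the labels, and its part in the result was not tested.

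**Figure D4:**
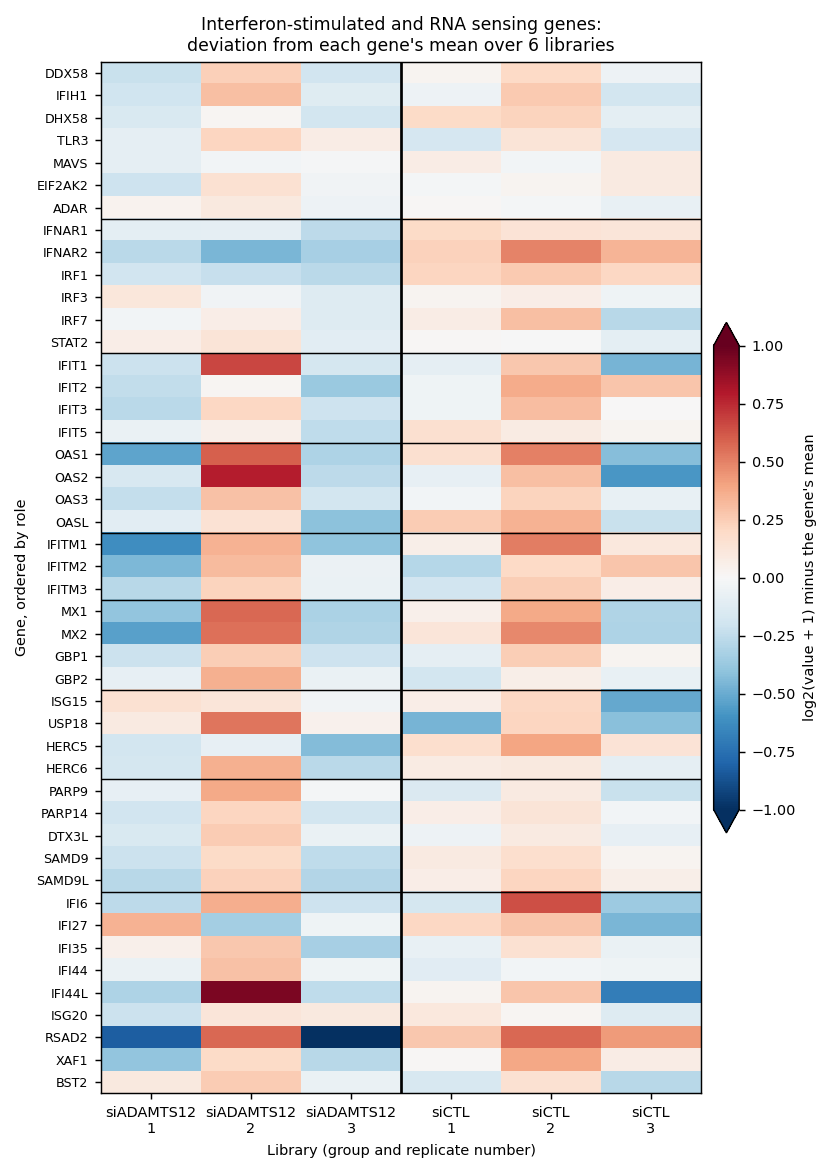
Deviation of each tested member from its own mean over the 6 libraries, as log2(value + 1), with siADAMTS12 libraries left of siCTL libraries and genes ordered by role; colours saturate at 1. The columns of replicate 2 are red in both groups (median deviation 0.23 in siADAMTS12, 0.22 in siCTL), and siADAMTS12 replicates 1 and 3 are the lowest (-0.19 each).

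**Figure D5:**
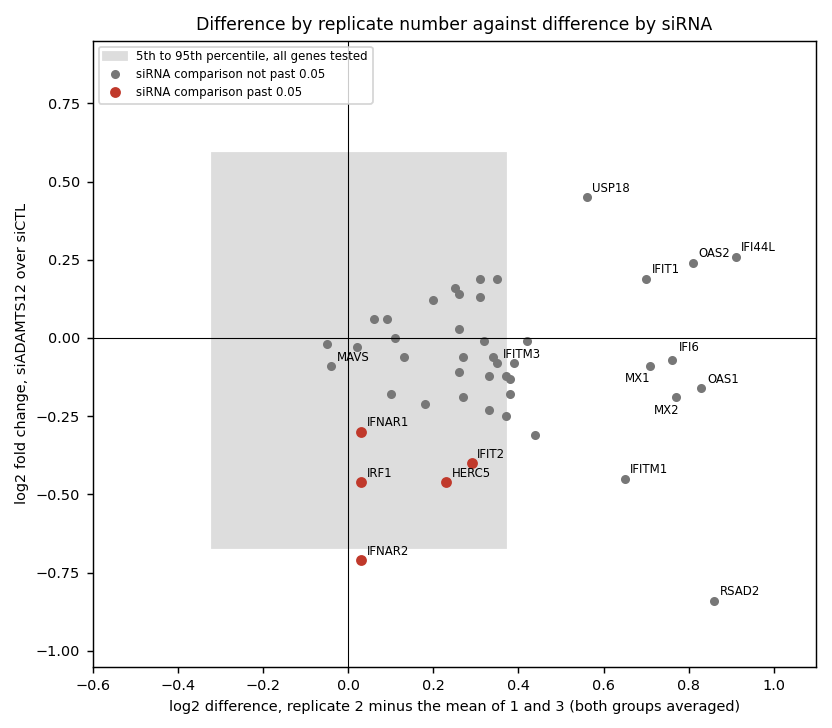
For each tested member, the log2 difference of replicate 2 from replicates 1 and 3 (horizontal) against the log2 fold change of siADAMTS12 over siCTL (vertical); the grey box spans the 5th to 95th percentiles of all tested genes, and red marks members past the threshold. IFI44L, RSAD2, OAS1, OAS2, MX2 and IFI6 lie to the right of the box, and of the 5 members that fell IFNAR2 lies just below it and the others inside it.

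The rest of the pathway was read from 3 further lists of 108 genes, 88 of them tested. Of these, 8 rose and 14 fell (25.0%), beside 27.0% of all genes. With columns brought to the same total, which shifts the median of all genes by 0.13 on the log2 scale, the balance turned round, to 24 rises and 7 falls. The balance over all genes turned round as well, as given above, so this is not particular to these lists. In the list of RNA and DNA sensing and signalling, 5 of 26 tested genes rose (19.2%) and 2 fell (7.69%), against 11.5% and 15.5% of all genes. TRAF3, the ubiquitin ligase that links MAVS to the kinases of IRF3, had 2469, 2231 and 2436 normalized counts in siADAMTS12, against 1741, 1563 and 1604 in siCTL (log2 fold change 0.54, SE 0.07, limma adjusted p = 0.000155). CGAS, the cytosolic DNA sensor, had 771, 787 and 804 in siADAMTS12, against 539, 541 and 555 in siCTL (log2 fold change 0.53, SE 0.07, limma adjusted p = 0.000237). NLRX1, a mitochondrial protein that restrains MAVS, had 371, 409 and 351 in siADAMTS12, against 235, 218 and 210 in siCTL (log2 fold change 0.77, SE 0.10, limma adjusted p = 0.00022). For these 3 genes all siADAMTS12 libraries lay above all siCTL libraries, and the call held under all 17 settings. TRAF6 (log2 fold change 0.43), another ligase of these pathways, and TBK1 (0.24), the kinase of IRF3, also rose. STING1 (-0.33), the adaptor downstream of CGAS, and PRKRA (-0.35), the protein activator of PKR, fell. The calls of TBK1, STING1 and TRAF6 were lost without replicate 3 of both groups (adjusted p = 0.0803, 0.156 and 0.0517), and TBK1 also without replicate 1 (0.121) or 2 (0.0782) of both groups, siADAMTS12 replicate 3 (0.0763), siCTL replicate 1 (0.0656) or siCTL replicate 2 (0.0629). STING1 also lost its call without replicate 1 of both groups (0.0801), without siADAMTS12 replicate 3 (0.0647), and with columns brought to the same total (log2 fold change -0.20, adjusted p = 0.0729).

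Among other ligands, receptors and JAK-STAT genes, 1 of 14 tested rose (7.14%) and 4 fell (28.6%), against 11.5% and 15.5% of all genes. SOCS3, an inhibitor of cytokine signalling, had 679, 636 and 839 in siADAMTS12, against 1126, 1156 and 1248 in siCTL (log2 fold change -0.72, SE 0.10, limma adjusted p = 0.000299), and the groups were apart. JAK1, the kinase bound to IFNAR2, had 7938, 8182 and 7265 in siADAMTS12, against 9489, 9466 and 9486 in siCTL (log2 fold change -0.28, limma adjusted p = 0.00545), and its call was lost with columns brought to the same total, under quantile normalization and without replicate 3 of both groups (adjusted p = 0.0529, 0.114 and 0.0923, with log2 fold changes of -0.16, -0.13 and -0.23). JAK2 (-0.40), a kinase of the interferon gamma receptor, and PIAS1 (-0.41), an inhibitor of STAT proteins, also fell. SOCS1, the inhibitor most tied to interferon, rose (log2 fold change 0.76, SE 0.23, limma adjusted p = 0.0331), with 251, 251 and 399 in siADAMTS12 and 140, 254 and 145 in siCTL. Its groups overlapped, and the call was lost under 7 of 17 settings, among them leaving out siADAMTS12 replicate 3 (0.133), siCTL replicate 1 (0.105), siCTL replicate 3 (0.124), replicate 1 of both groups (0.153) or replicate 3 of both groups (0.346, with a log2 fold change of 0.41). IFNA1, IFNA2, IFNG, IFNK, IFNW1, IFNL2 and IFNL3 were listed at 0 in every library, and IFNL1 at 0 in all but siCTL replicate 3, which had 1. IFNE, the only interferon gene tested, was low, with 31, 30 and 22 in siADAMTS12 and 21, 14 and 21 in siCTL. Its groups did not overlap, siADAMTS12 being the higher, but it did not pass the threshold (log2 fold change 0.55, SE 0.28, limma adjusted p = 0.171).

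In the third list, of further interferon-stimulated genes, 2 of 48 tested rose (4.17%) and 8 fell (16.7%), against 11.5% and 15.5% of all genes, so that the share that fell was near that of all genes. SHISA5, a membrane protein of the endoplasmic reticulum, had 4338, 5326 and 5255 in siADAMTS12, against 7609, 8448 and 8422 in siCTL (log2 fold change -0.72, SE 0.08, limma adjusted p = 7.88e-05). TENT5A had 332, 360 and 287 in siADAMTS12, against 582, 624 and 555 in siCTL (log2 fold change -0.85, SE 0.10, limma adjusted p = 9.92e-05). Both were apart between the groups and kept their calls under all 17 settings. APOL6 (-0.40), CNP (-0.27) and SP100 (-0.24), the last a nuclear body protein, also fell, while TRIM22 (0.50), an antiviral ubiquitin ligase, and BATF2 (0.65), a transcription factor, rose. Among the further genes named as calls, SHISA5, TENT5A, APOL6, CNP, SOCS3 and PIAS1 hold the 7-base seed match in the 3′ UTR. All of these fell, but the tally covers only genes with a call. TRIM25, MYD88, TRIM14, UBE2L6, GBP4, SLFN5 and HELZ2 of the further lists hold the match too and did not pass the threshold. The other named falls and all named rises hold none, beside 30.9% of all genes that fell and 11.0% of all that rose. Whether the seed had a part in these changes was not tested. BATF2 lost its call without siADAMTS12 replicate 2 (0.0545), siADAMTS12 replicate 3 (0.0577) or siCTL replicate 3 (0.0517). Leaving out replicate 3 of both groups ended the calls of JAK2, PIAS1, TRIM22, BATF2, APOL6, CNP and SP100 (adjusted p between 0.0629 and 0.151), and leaving out replicate 1 of both groups those of JAK2, TRIM22, APOL6, CNP and SP100 (0.0505 to 0.0705). BATF2 also lost its call without replicate 2 of both groups (0.0545), and TRIM22 with eBayes without a trend (0.0501). With columns brought to the same total CNP had a log2 fold change of -0.15 (adjusted p = 0.0956) and SP100 one of -0.12 (0.119), and under quantile normalization CNP had -0.17 (0.0675) and SP100 -0.14 (0.0725). Of the 48 genes of the third list, 27 (56.2%) were highest in replicate 2 of both groups, against 12.6% of all genes, and their median difference of replicate 2 from the others was 0.17 on the log2 scale. The list of sensing and signalling genes had a median of 0.03 and the list of ligands, receptors and JAK-STAT genes 0.02.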

How the data were processed

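RNA of 6 LX-2 libraries (siADAMTS12 and siCTL, 3 each) was sequenced from a stranded mRNA kit, per the labels' protocols. The deposited values are a score: normalized counts that the authors give as whole numbers, per the name of the file. STAR, HTSeq, DESeq2 and GRCh38 are named without versions per the submitters' processing notes; the sources used here give neither the annotation nor whether strand was used in counting. Size factors computed from the columns lay between 1.003 and 1.007, so the columns had been scaled to each other. Read depth is therefore unknown and no count model was run.

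Genes with a mean of at least 10 were analysed as log2(value + 1), which understates the fold changes of low genes, with limma 3.58.1 in R 4.3.3 (eBayes with trend, 2-sided, Benjamini-Hochberg over 15637 genes, threshold 0.05, 95% intervals without adjustment). On simulated data with 200 changed genes this recovered 75.2% of changes of 0.5, 90.6% of 1 and 98.2% of 2 on the log2 scale, with 4.24% false calls. The simulation gave every gene the same small biological spread and held no difference by replicate number. Its shares therefore do not carry over to members with a wider spread between libraries, where a lack of a call says less. Same-numbered libraries deviated from their group means together across all tested genes (correlations 0.37, 0.13 and 0.13, against -0.19 to 0.06 for different numbers). The numbers were therefore taken to pair the libraries in the block fit. That rests on the data, not on the labels, and for numbers 2 and 3 the margin was small (0.13 against 0.06). The main fit used no block, and limma p-values and intervals come from it unless another fit is named. Named genes are every member, ADAMTS12, and up to 5 genes per further list and direction by smallest adjusted p. The members and lists were chosen with earlier results of these data known. Exon lengths, overlaps and 3′ UTRs came from GENCODE 29, promoters from RefSeq (GRCh38.p14, matched for 37 of 48 members). Python 3.11.15 was used for the rest. Each choice of scaling, filter, pseudocount, trend, block and library was varied in turn.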

Additional observations from a re-analysis of the deposited data

How the results depend on the processing

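Of 17 alternatives, 14 were planned and 3, which leave out the same replicate number of both groups, were chosen after seeing the data; among the 30 named genes recomputed under them (ADAMTS12, members and further genes), no log2 fold change changed sign. With columns brought to the same total, 3868 of all genes rose and 1546 fell, 2 members rose and 3 fell, 24 further genes rose and 7 fell, and the members' median log2 fold change was 0.04. Quantile normalization gave 1 member that rose and 9 further genes that fell. With the replicate block, 2 members rose, 8 fell, and 12 further genes rose and 21 fell. Leaving out 1 library, or 1 replicate number of both groups, gave 694 to 1623 rises and 1252 to 2368 falls over all genes, 0 to 2 rises and 2 to 12 falls among members, 3 to 8 rises and 4 to 18 falls among the further genes, and a members' median of -0.25 to 0.02. Without replicate 1 of both groups, 848 of all genes rose and 1479 fell, and 5 further genes rose and 6 fell. The 12 member falls came without siADAMTS12 replicate 2, 9 without replicate 2 of both groups (with 1 rise), 2 without replicate 3 of both, and the 2 rises without siCTL replicate 2. For the seed, a 6-base match was held by 37.0% of members against 41.4% of genes searched, and an 8-base match by 4.35% against 6.13%. The cause of these changes was not tested. Read depth is unknown, so no floor is given for genes listed at 0.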

Other observations

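The ISRE core was also present in the promoters of 309 tested genes outside the members. Their median log2 difference of replicate 2 from the mean of replicates 1 and 3 was 0.02, and 67 of them (21.7%) had an unadjusted p under 0.05 for the replicate number in the limma block fit. Among 10910 tested genes without the core the median was -0.00 and the number was 1712 (15.7%). The 105 genes past an adjusted p under 0.05 for the replicate number held 4 members and 1 gene of the further lists. Of the 105, 28 were highest in replicate 2 of both groups, 26 were highest in replicate 1 of both, and 40 were lowest in replicate 1 of both.

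Across the members alone, the correlations of deviations from the group mean were 0.30, 0.50 and 0.38 between same-numbered libraries of the 2 groups and -0.42 to 0.15 between libraries with different numbers, over 46 genes that are not independent of each other. In GENCODE 29, all exon bases of TREX1, which was listed at 0 in every library, lie within ATRIP on the same strand (100%), and 83.0% of those of TRIM34 lie within the read-through gene TRIM6-TRIM34.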
